A study of Mus musculus with 96 samples.

Results

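Ly9, Cd52, Itgax, Clec7a and Lyz2 are 5 of the 22709 genes in the deposited table, each identified there by its symbol alone. They are known from leukocytes, and they were chosen by their levels in these same libraries, which were higher with the CSF1R inhibitor. Their PLX differences are therefore given as a description, without a test. What the choice did not use is whether the 5 genes vary together from library to library, and whether they differ by prenatal treatment or sex.

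The study measured mRNA in 2 brain regions of mice, hippocampus and prefrontal cortex. Their dams had either undergone maternal immune activation (MIA) or been given saline. The offspring received the CSF1R inhibitor PLX5622, called PLX here, or a control. There were 96 libraries in 16 groups, 8 groups per tissue, formed by prenatal treatment, inhibitor and sex, with 6 libraries each except MIA females without inhibitor (7) and MIA males without inhibitor (5). The labels give neither strain, age, litter, the agent of immune activation, nor the dose, timing or end of PLX, so a reader cannot place the samples on a time course of depletion or regrowth of microglia.

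CSF1R is the receptor through which microglia, the resident macrophages of the brain, receive the signal that keeps them alive, and inhibitors of it remove microglia while given. Ly9 (SLAMF3) is a self-binding receptor of the SLAM family found on lymphocytes and some macrophages. CD52, the product of Cd52, is a very short peptide that is fixed to the leukocyte surface by a lipid anchor. Itgax encodes CD11c, the alpha chain that pairs with the beta2 chain of Itgb2 to form complement receptor 4. Clec7a encodes dectin-1, a lectin receptor for beta-glucans of fungal walls. Lyz2 encodes the lysozyme of macrophages and granulocytes, an enzyme that cuts bacterial walls. Itgax and Clec7a are also known from microglia that have left the resting state, so the 5 genes do not mark a single cell type.

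The upstream bases of 3 of the 5 genes were in the RefSeq promoter table (build GRCm38.p6), and they are shown because the genes were read for shared letters before their start sites. Each stretch holds the 250 bases before the start, 5′ to 3′ on the strand of the gene, and capitals mark a match. Ly9 and Cd52 are named only. The stretches are chr7:128129300-128129549 on the plus strand for Itgax, chr6:129472780-129473029 on the minus strand for Clec7a, for which the table holds 2 starts and the first is shown, and chr10:117282273-117282522 on the minus strand for Lyz2.
Itgax: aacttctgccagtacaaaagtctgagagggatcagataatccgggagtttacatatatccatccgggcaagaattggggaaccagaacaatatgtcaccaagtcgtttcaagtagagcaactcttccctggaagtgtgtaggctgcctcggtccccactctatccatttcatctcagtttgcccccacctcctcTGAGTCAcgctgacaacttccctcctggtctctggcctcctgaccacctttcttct
Clec7a: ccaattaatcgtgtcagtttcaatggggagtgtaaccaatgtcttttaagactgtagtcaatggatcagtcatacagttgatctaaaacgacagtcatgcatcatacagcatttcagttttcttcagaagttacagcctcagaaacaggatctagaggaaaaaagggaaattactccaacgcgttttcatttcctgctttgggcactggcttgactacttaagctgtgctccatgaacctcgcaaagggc
Lyz2: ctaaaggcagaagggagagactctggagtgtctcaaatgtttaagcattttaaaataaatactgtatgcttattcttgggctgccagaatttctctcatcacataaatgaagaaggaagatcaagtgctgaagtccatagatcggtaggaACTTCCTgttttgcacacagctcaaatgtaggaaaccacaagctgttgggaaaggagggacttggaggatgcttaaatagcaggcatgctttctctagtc
The 3 motifs searched on both strands were AGGAAGT, of the type bound by PU.1, TGANTCA, of the type bound by AP-1, and TCACGTG, of the type bound by TFEB and MITF. Itgax held 1 match to TGANTCA at bases -56 to -50 from the start, and Lyz2 held 1 match to AGGAAGT, read on the other strand, at bases -100 to -94. Clec7a held 0 matches, and no motif was found in more than 1 of the 3 genes. Of the 32851 windows of the same length in the table, 7.69% held AGGAAGT, 6.75% held TGANTCA and 3.13% held TCACGTG. A match in these letters is a description only.

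Recovered reads per library ran from 22234569 to 26689351 in hippocampus and from 22752437 to 25928320 in prefrontal cortex. Hippocampal libraries held Prox1 at a median of 3531 scaled reads against 336 in prefrontal cortex, and prefrontal libraries held Tbr1 at 3669 against 1142. In all, 3 of 4 hippocampal markers and 4 of 5 cortical markers had the higher median in the labelled tissue. The exceptions were Wfs1, at 3131 in hippocampus and 3539 in prefrontal cortex, and Fezf2, at 804 and 632. Markers of adjoining tissue varied widely between libraries. Ttr of choroid plexus ran from 200 to 89354 scaled reads in hippocampus, and Drd2 of striatum from 25.5 to 1195 in prefrontal cortex. Whether such tissue content bears on the 5 genes was not tested. In each tissue 14 libraries stood apart by a high share of reads in 177 genes of ribosomal proteins and oxidative phosphorylation, 1.23% to 1.41% against 0.868% to 1.08% in hippocampus and 1.19% to 1.37% against 0.834% to 1.15% in prefrontal cortex. The split was drawn after the values were seen, at the widest gap of the hippocampal values, and the same 14 labels were also the highest in prefrontal cortex. Of these 14 libraries, 12 were controls and 2 carried PLX, so the PLX differences within strata are also given without them. All levels are deposited values, read counts divided by one factor per library, and are called scaled reads.

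Ly9 had the highest PLX to control ratio of the 5 genes over whole tissues. The mean ± SD of 24 control libraries and 24 PLX libraries went from 6.43 ± 4.32 to 15.6 ± 4.10 scaled reads in hippocampus and from 7.47 ± 3.78 to 20.8 ± 4.79 in prefrontal cortex. Hippocampal Ly9 in saline females ran from 3.86 (median 8.12) to 10.5 scaled reads without inhibitor and from 11.9 (median 15.2) to 23.002 with PLX. Hippocampal Ly9 in saline males ran from 3.19 (median 4.41) to 8.09 scaled reads without inhibitor and from 9.64 (median 12.5) to 23.9 with PLX. No PLX library overlapped a control in either of these strata. Hippocampal Ly9 in MIA females ran from 2.93 (median 4.94) to 22.9 scaled reads without inhibitor and from 14.98 (median 17.8) to 22.2 with PLX. Hippocampal Ly9 in MIA males stood at 1.94, 2.75, 4.15, 8.35 and 8.39 scaled reads without inhibitor and ran from 10.2 (median 13.7) to 19.8 with PLX. The males did not overlap, and in the females a single control library, number 5 at 22.9, lay above every PLX library. Differences of log2(scaled reads + 1) between PLX and control ran from 0.99 ± 0.31 (SE, n = 6 and 6) in saline females to 1.49 ± 0.33 (n = 5 and 6) in MIA males.

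Prefrontal Ly9 in saline females ran from 1.02 (median 8.64) to 13.4 scaled reads without inhibitor and from 15.6 (median 18.6) to 24.7 with PLX. Prefrontal Ly9 in saline males ran from 4.70 (median 7.28) to 14.2 scaled reads without inhibitor and from 13.7 (median 17.5) to 31.4 with PLX. Saline females did not overlap in prefrontal cortex, and in saline males 1 control library reached the range of PLX. Prefrontal Ly9 in MIA females ran from 3.07 (median 8.95) to 14.9 scaled reads without inhibitor and from 13.4 (median 23.7) to 28.7 with PLX. Prefrontal Ly9 in MIA males stood at 3.86, 4.90, 5.06, 6.48 and 7.10 scaled reads without inhibitor and ran from 19.01 (median 20.7) to 28.2 with PLX. The MIA males had the highest ratio of means of any gene and stratum, 4.08, and a log2 difference of 1.86 ± 0.34 (SE, n = 5 and 6). Without the libraries that stood apart, the Ly9 differences ran from 1.00 to 1.79 in hippocampus and from 1.09 to 2.13 in prefrontal cortex. In the order of group means, all 4 PLX groups lay above all 4 control groups in both tissues. The step between the lowest PLX group and the highest control group was larger than the SD of both groups, and no other neighbours in that order differed by more than both SDs.

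Cd52 was higher with PLX on average, but its groups overlapped in all 8 strata. They separated fully in 3 strata once the libraries that stood apart were left out: hippocampal saline females and MIA males and prefrontal saline males. Its mean was 13.6 ± 6.59 scaled reads without inhibitor and 20.1 ± 4.37 with PLX in hippocampus, and 18.4 ± 6.28 and 26.5 ± 7.26 in prefrontal cortex. Hippocampal Cd52 in saline females ran from 6.19 (median 8.34) to 28.6 scaled reads without inhibitor and from 11.5 (median 20.9) to 28.8 with PLX. Hippocampal Cd52 in saline males ran from 8.48 (median 16.2) to 20.7 scaled reads without inhibitor and from 14.4 (median 18.4) to 21.8 with PLX. In saline females the 2 controls at or above the lowest PLX library were both among those that stood apart. Hippocampal Cd52 in MIA females ran from 9.41 (median 11.7) to 26.2 scaled reads without inhibitor and from 16.7 (median 21.5) to 26.002 with PLX. Hippocampal Cd52 in MIA males stood at 7.31, 8.29, 9.72, 10.98 and 15.9 scaled reads without inhibitor and ran from 14.1 (median 20.6) to 29.04 with PLX. Log2 differences lay between 0.37 ± 0.28 (SE, saline males, n = 6 and 6) and 0.92 ± 0.30 (MIA males, n = 5 and 6).

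Prefrontal Cd52 in saline females ran from 11.1 (median 21.01) to 30.3 scaled reads without inhibitor and from 14.6 (median 25.05) to 36.3 with PLX. Prefrontal Cd52 in saline males ran from 8.05 (median 17.1) to 20.5 scaled reads without inhibitor and from 19.98 (median 29.2) to 34.5 with PLX. These 2 strata gave the smallest and the largest prefrontal difference of Cd52, 0.32 ± 0.24 in saline females and 0.88 ± 0.24 in saline males (SE, n = 6 and 6). Prefrontal Cd52 in MIA females ran from 12.9 (median 21.4) to 27.03 scaled reads without inhibitor and from 22.7 (median 28.5) to 45.4 with PLX. Prefrontal Cd52 in MIA males stood at 8.82, 14.2, 15.7, 20.2 and 21.2 scaled reads without inhibitor and ran from 15.5 (median 20.2) to 29.3 with PLX. By the ratio of means, Cd52 differed most of the 5 genes between controls that stood apart and controls that did not, with of 16.5 against 10.8 scaled reads in hippocampus and 21.9 against 14.9 in prefrontal cortex (n = 12 and 12). Without the libraries that stood apart its log2 differences ran from 0.58 to 1.32 in hippocampus and from 0.58 to 1.42 in prefrontal cortex, and in saline females they were 1.32 and 0.83. The 4 PLX groups held the top 4 means in each tissue, but no neighbours in the order differed by more than both SDs.

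Itgax was higher with PLX in all 8 strata, and its PLX libraries spread widely in prefrontal cortex. The mean went from 6.48 ± 2.65 to 11.7 ± 4.38 scaled reads in hippocampus and from 7.59 ± 3.24 to 17.7 ± 8.71 in prefrontal cortex. Hippocampal Itgax in saline females ran from 4.97 (median 7.74) to 12.4 scaled reads without inhibitor and from 5.30 (median 14.2) to 17.9 with PLX. Hippocampal Itgax in saline males ran from 3.78 (median 7.53) to 11.3 scaled reads without inhibitor and from 4.82 (median 8.86) to 19.7 with PLX. In both saline strata 5 of 6 controls reached the lowest PLX library, and the log2 differences were 0.61 ± 0.27 and 0.35 ± 0.27 (SE, n = 6 and 6). Hippocampal Itgax in MIA females ran from 3.90 (median 6.02) to 9.37 scaled reads without inhibitor and from 12.8 (median 14.99) to 15.98 with PLX. Hippocampal Itgax in MIA males stood at 1.86, 2.75, 3.13, 4.86 and 5.18 scaled reads without inhibitor and ran from 5.87 (median 7.49) to 13.02 with PLX. Both MIA strata separated fully, with log2 differences of 1.14 ± 0.26 (n = 7 and 6) and 1.06 ± 0.28 (n = 5 and 6).

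Prefrontal Itgax in saline females ran from 5.76 (median 8.53) to 11.1 scaled reads without inhibitor and from 11.003 (median 14.3) to 40.1 with PLX. Prefrontal Itgax in saline males ran from 3.61 (median 5.03) to 11.1 scaled reads without inhibitor and from 11.6 (median 13.8) to 23.6 with PLX. Saline males did not overlap, whereas among saline females 1 control lay above the lowest PLX library. Prefrontal Itgax in MIA females ran from 4.10 (median 7.46) to 16.9 scaled reads without inhibitor and from 8.26 (median 17.6) to 40.5 with PLX. Prefrontal Itgax in MIA males stood at 4.06, 4.90, 5.79, 7.08 and 7.41 scaled reads without inhibitor and ran from 7.06 (median 15.3) to 21.7 with PLX. The highest values of the gene, 40.1 and 40.5 scaled reads, came from 1 saline and 1 MIA female library with PLX, and each was more than the SD above its group mean. Prefrontal log2 differences ran from 0.97 ± 0.32 in saline females to 1.251 ± 0.34 in MIA males (SE). Without the libraries that stood apart they ran from 0.82 to 1.21, and in hippocampus from 0.48 to 1.08. PLX groups held the top 4 places in each tissue. Only 1 step in each order exceeded the SD of both neighbours, the one from the lowest PLX group to the highest control group in prefrontal cortex and, in hippocampus, the one from MIA control females to MIA control males.

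Clec7a was higher with PLX in 7 of 8 strata. Its mean was 8.66 ± 6.16 scaled reads without inhibitor and 14.7 ± 5.19 with PLX in hippocampus, and 7.26 ± 3.37 and 14.2 ± 4.33 in prefrontal cortex. Hippocampal Clec7a in saline females ran from 5.90 (median 11.5) to 30.5 scaled reads without inhibitor and from 7.95 (median 11.8) to 17.7 with PLX. Hippocampal Clec7a in saline males ran from 2.83 (median 7.63) to 13.8 scaled reads without inhibitor and from 9.27 (median 14.9) to 20.04 with PLX. The saline females were the exception, with a log2 difference of -0.03 ± 0.36 (SE, n = 6 and 6). One of their controls, number 6 at 30.5, was the highest Clec7a value of all libraries and stood apart by its ribosomal share, and without such libraries the difference was 0.35. Hippocampal Clec7a in MIA females ran from 2.02 (median 5.86) to 15.6 scaled reads without inhibitor and from 9.99 (median 17.7) to 21.3 with PLX. Hippocampal Clec7a in MIA males stood at 2.80, 4.86, 5.22, 8.24 and 12.4 scaled reads without inhibitor and ran from 6.84 (median 11.99) to 25.03 with PLX. The other 3 hippocampal differences lay between 1.03 ± 0.38 in MIA males and 1.36 ± 0.35 in MIA females (SE), and all 3 overlapped. In MIA males it was 0.65 without the libraries that stood apart.

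Prefrontal Clec7a in saline females ran from 2.94 (median 7.95) to 11.1 scaled reads without inhibitor and from 9.36 (median 12.1) to 13.4 with PLX. Prefrontal Clec7a in saline males ran from 4.29 (median 5.26) to 12.3 scaled reads without inhibitor and from 7.36 (median 17.6) to 22.5 with PLX. A single saline male PLX library, number 1 at 7.36, lay inside the control range. Prefrontal Clec7a in MIA females ran from 0.995 (median 8.39) to 11.9 scaled reads without inhibitor and from 12.03 (median 16.1) to 20.7 with PLX. Prefrontal Clec7a in MIA males stood at 1.85, 4.90, 6.07, 7.72 and 11.2 scaled reads without inhibitor and ran from 8.33 (median 10.6) to 18.8 with PLX. MIA females did not overlap. Prefrontal log2 differences ran from 0.65 ± 0.34 in saline females to 1.17 ± 0.34 in saline males (SE), and from 0.93 to 1.38 without the libraries that stood apart. In hippocampus, saline control females ranked above saline PLX females, and the step from the latter to saline control males was the only one larger than both SDs. In prefrontal cortex the 4 PLX groups ranked first, and no step exceeded the SD of both neighbours.

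Lyz2 had the smallest ratio of PLX to control means in hippocampus, and in prefrontal cortex its males separated fully. Its mean went from 158 ± 60.8 to 197 ± 37.2 scaled reads in hippocampus and from 177 ± 42.1 to 259 ± 54.6 in prefrontal cortex. Hippocampal Lyz2 in saline females ran from 118 (median 172) to 289 scaled reads without inhibitor and from 155 (median 202) to 260.0 with PLX. Hippocampal Lyz2 in saline males ran from 88.5 (median 123) to 268 scaled reads without inhibitor and from 163 (median 199) to 225 with PLX. Among saline males without inhibitor, libraries 2 and 3 stood at 266 and 268, above every PLX library of the stratum, and the other 4 lay at 147 or lower. Hippocampal Lyz2 in MIA females ran from 114 (median 148) to 248 scaled reads without inhibitor and from 157 (median 219) to 271 with PLX. Hippocampal Lyz2 in MIA males stood at 88.6, 106, 113, 123 and 164 scaled reads without inhibitor and ran from 123 (median 165) to 241 with PLX. All 4 hippocampal strata overlapped, with log2 differences from 0.14 ± 0.22 in saline females to 0.50 ± 0.23 in MIA males (SE).

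Prefrontal Lyz2 in saline females ran from 124 (median 194) to 267 scaled reads without inhibitor and from 177 (median 227) to 271 with PLX. Prefrontal Lyz2 in saline males ran from 123 (median 157) to 204 scaled reads without inhibitor and from 228 (median 299) to 389.6 with PLX. In saline females 5 of 6 controls reached the lowest PLX library (0.16 ± 0.17 on the log2 scale), and saline males did not overlap (0.93 ± 0.17, SE, n = 6 and 6). Prefrontal Lyz2 in MIA females ran from 118 (median 199) to 241 scaled reads without inhibitor and from 212 (median 253) to 294 with PLX. Prefrontal Lyz2 in MIA males stood at 132, 144, 162, 166 and 199 scaled reads without inhibitor and ran from 208 (median 251) to 354 with PLX. MIA males did not overlap either, with a log2 difference of 0.69 ± 0.17 (n = 5 and 6), and MIA females stood at 0.49 ± 0.16 with overlap (n = 7 and 6). Without the libraries that stood apart the differences ran from 0.28 to 0.59 in hippocampus and from 0.44 to 0.95 in prefrontal cortex. Saline control females ranked above MIA PLX males in hippocampus, the PLX groups held the top 4 places in prefrontal cortex, and no neighbours in either order differed by more than both SDs.

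**Figure D1:**
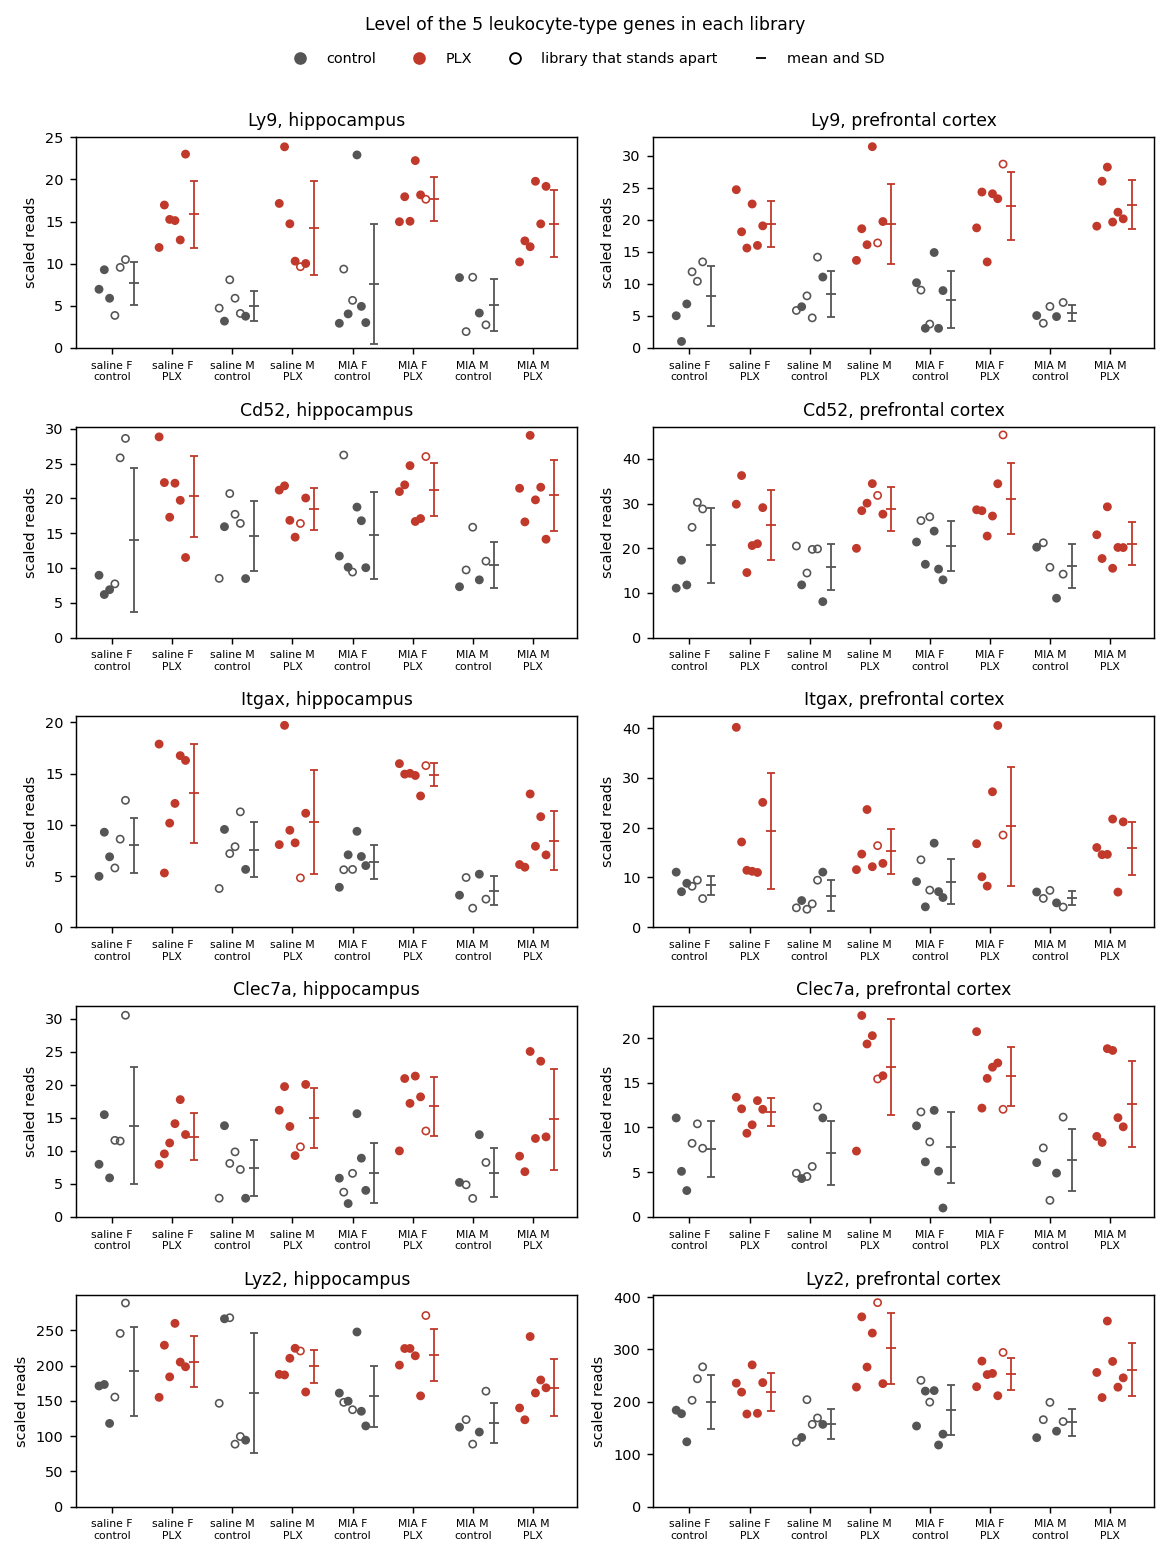
Scaled reads of each gene in each of the 96 libraries, by prenatal treatment, sex and inhibitor, with 1 row per gene and 1 column per tissue; open points are libraries that stood apart by their ribosomal and oxidative phosphorylation share, and bars give the mean and SD of a group. The 6 hippocampal MIA female PLX libraries of Itgax sit between 12.8 and 15.98, above all 7 controls, while Cd52 overlaps in every stratum when all libraries are counted.

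Over the 20 pairs of gene and stratum in each tissue, every PLX library lay above every control library in 5 pairs in hippocampus and 6 in prefrontal cortex. Ly9 gave 5 of these 11 pairs, Itgax 3, Lyz2 2, Clec7a 1 and Cd52 0. Of all genes tested, such full separation upward was seen in 0.261% in saline females, 0.191% in saline males, 0.11% in MIA females and 1.19% in MIA males in hippocampus. The prefrontal shares were 0.403%, 0.892%, 0.0454% and 0.731% in the same order. As the genes were picked for this contrast, nothing is read from their count. Without the libraries that stood apart, 8 hippocampal and 9 prefrontal pairs separated fully, with 2 controls left in each male stratum. Of all genes tested, 0.667%, 4.89%, 0.667% and 3.32% then separated fully in hippocampus, in the same order of strata, and 1.06%, 9.5%, 0.292% and 2.53% in prefrontal cortex. In bulk tissue, more cells of a type and more RNA per cell cannot be told apart.

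**Figure D2:**
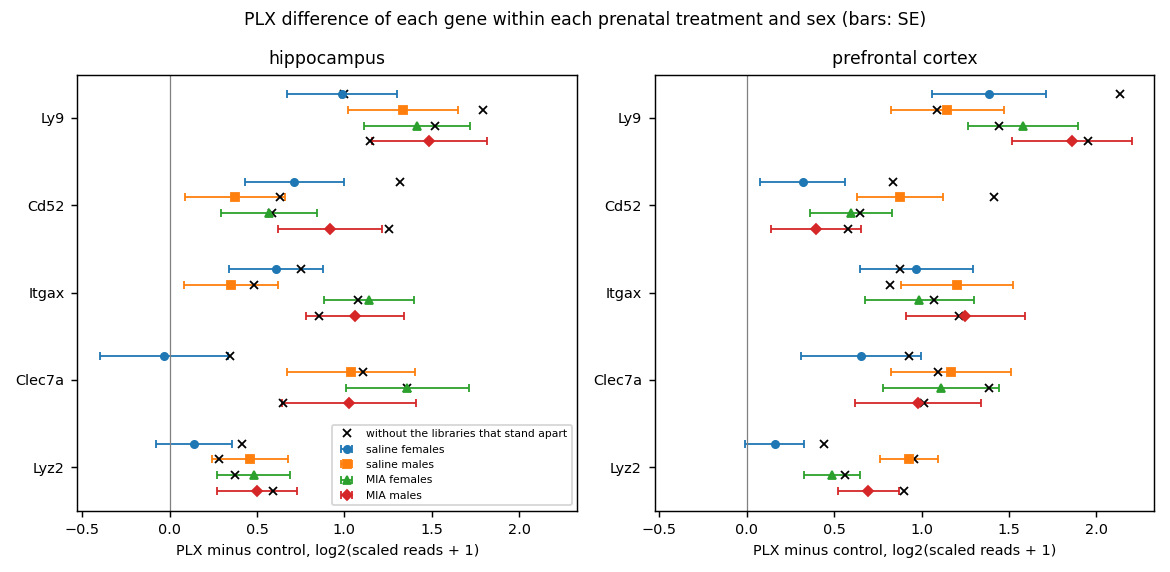
Difference of log2(scaled reads + 1) between PLX and control for each gene in each prenatal treatment and sex, with bars for the SE and crosses for the difference without the libraries that stood apart. Ly9 runs from 0.99 to 1.49 in hippocampus and from 1.15 to 1.86 in prefrontal cortex. With all libraries it lies furthest right except in prefrontal saline males, where Itgax (1.20) and Clec7a (1.17) lie above it. The crosses of Cd52 lie right of those of Ly9 in hippocampal saline females and MIA males and in prefrontal saline males. Hippocampal Clec7a in saline females lies at -0.03.

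The 5 genes also differed in how evenly PLX libraries of a group carried them. The variance within groups divided by the mean, which is about 1 where libraries differ by counting alone, was 1.11 and 1.14 for Ly9 with PLX in hippocampus and prefrontal cortex. Cd52 with PLX stood at 1.03 and 1.62, and Clec7a at 1.90 and 1.14. Without inhibitor the same 3 genes had ratios of 3.03, 3.42 and 3.80 in hippocampus, although their means were lower. Single libraries or the libraries that stood apart carried much of this. The ratio of Ly9 was 1.06 without MIA control female 5 and 5.89 without the libraries that stood apart, that of Clec7a 2.20 without saline control female 6, and that of Cd52 1.13 without the libraries that stood apart. These settings were added after the values were seen. Itgax went the other way, from 1.29 without inhibitor to 4.62 with PLX in prefrontal cortex. Lyz2, with far more reads per library, had ratios between 6.26 and 22.2, so its spread between libraries was well above counting error in both tissues. For Ly9, with 1.02 to 14.9 scaled reads in prefrontal controls, a few reads more or less move a library visibly.

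Whether the genes rise together in the same libraries was asked within groups, after the group mean of log2(scaled reads + 1) was removed. Each of 10 pairs was tested in 24 libraries of each tissue and inhibitor state, with 100000 permutations within groups (two-sided) and adjustment over all 40 tests. Positive correlations were seen in 10 of 10 pairs in hippocampal controls, 9 of 10 in hippocampal PLX libraries, and 10 of 10 in both prefrontal sets, and 0 of 40 passed an adjusted p of 0.05 by Pearson's r or Spearman's rho. By unadjusted permutation p, 9 of 40 pairs lay under 0.05 by r and 10 by rho. The mean r was 0.39 in hippocampal controls, 0.19 in hippocampal PLX libraries, 0.31 in prefrontal controls and 0.34 in prefrontal PLX libraries. With the level of Csf1r also removed, 6 of 10 pairs were positive in hippocampal controls and 7 of 10 in hippocampal PLX libraries, and the mean r was 0.12 and 0.14. The prefrontal sets kept 10 of 10 positive, at 0.29 and 0.38. Without the libraries that stood apart, the mean r was 0.56 in hippocampal controls (12 libraries) and 0.19 in hippocampal PLX libraries (22). It was 0.32 in prefrontal controls (12) and 0.38 in prefrontal PLX libraries (22). No pair passed in that setting, where the smallest adjusted permutation p by r was 0.26. The pairs share libraries and genes, so their signs are not independent. No share of positive pairs over all genes is given, so these counts alone do not set the genes apart. Ranks by r among 19365 genes were taken in PLX libraries and varied widely. In hippocampus they ran from 134th (Clec7a for Itgax) to 17719th (Ly9 for Cd52). In prefrontal cortex they ran from 21st (Cd52 for Ly9) to 7769th (Itgax for Lyz2).

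Itgax and Clec7a, which are both known from activated microglia, were the most closely linked pair in hippocampus when all libraries were counted. Without inhibitor their r was 0.66 and rho 0.60 (permutation p = 0.00136, adjusted p = 0.0544), and r was 0.56 without the 2 libraries farthest from the median. With PLX r was 0.54 and rho 0.51 (permutation p = 0.00762, adjusted p = 0.102). Without the libraries that stood apart, the control r was 0.62 (12 libraries), below other pairs such as Cd52 with Clec7a at 0.77. With PLX it was then 0.53 (22 libraries). With the level of Csf1r removed, r of Itgax and Clec7a was 0.47 in controls and 0.53 with PLX. In prefrontal cortex the same pair stood at 0.45 without inhibitor and 0.30 with PLX. Of 19365 genes compared in hippocampal PLX libraries, Clec7a ranked 134th for likeness to Itgax, and in prefrontal PLX libraries 2316th. In the same order of tissues, Itgax ranked 251st and 917th for likeness to Clec7a.

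With PLX, the r of Ly9 and Cd52 had opposite signs in the 2 tissues, and neither passed the adjusted threshold. In prefrontal cortex r was 0.56 and rho 0.51 (permutation p = 0.0059, adjusted p = 0.102), and Cd52 ranked 21st of 19365 genes for likeness to Ly9, against 16393rd in hippocampus. Ly9 ranked 181st and 17719th for likeness to Cd52. With the level of Csf1r also removed, the prefrontal r was 0.63 (permutation, adjusted p = 0.0284 by r and 0.137 by rho). In hippocampus r was -0.29 and rho -0.20 (permutation p = 0.178, adjusted p = 0.317). The difference between tissues was not tested. Lyz2 was linked most to Cd52 in prefrontal cortex, with r of 0.49 both without inhibitor (adjusted p = 0.142) and with PLX (adjusted p = 0.115), and least to Itgax, with r of 0.12 and 0.09.

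**Figure D3:**
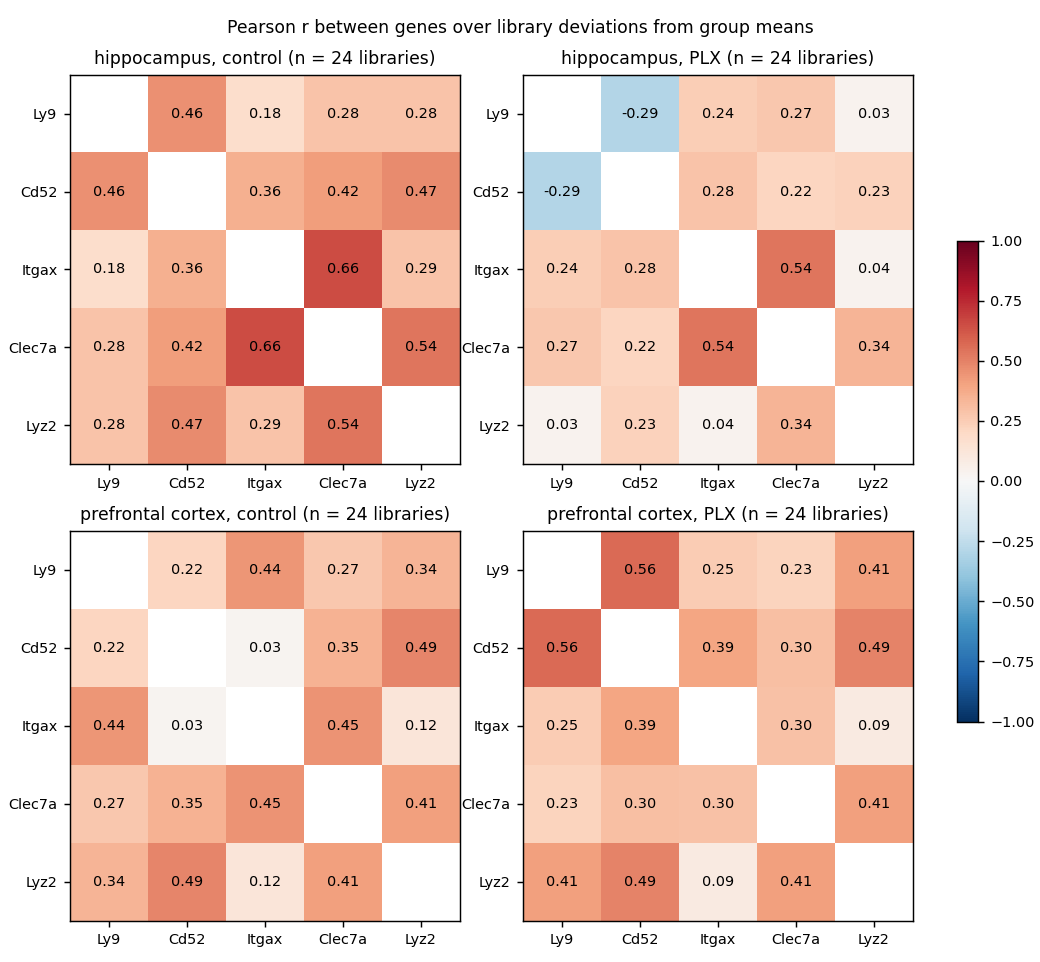
Pearson r between the genes over deviations from group means, in 4 panels of 24 libraries each, by tissue and inhibitor; red is positive and blue negative. The highest value is 0.66 for Itgax with Clec7a in hippocampal controls, and the only negative one is -0.29 for Ly9 with Cd52 in hippocampal PLX libraries.

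Some libraries carried several of the genes at a high level, and others were split. Hippocampal library 6 of the saline control females was the highest of its group for all 5 genes, at 10.5 for Ly9, 28.6 for Cd52, 12.4 for Itgax, 30.5 for Clec7a and 289 for Lyz2, and it stood apart by its ribosomal share. MIA control female 5 was the highest of its group for Ly9, Itgax, Clec7a and Lyz2 in hippocampus and for Ly9, Itgax and Clec7a in prefrontal cortex, and it did not stand apart. Among PLX libraries, MIA male 3 was the highest of its group for 4 genes in each tissue: Cd52, Itgax, Clec7a and Lyz2 in hippocampus, and Ly9, Cd52, Clec7a and Lyz2 in prefrontal cortex. Prefrontal PLX library 1 of the saline females was the highest for Ly9, Itgax and Clec7a, and prefrontal PLX library 1 of the saline males was the lowest of its group for all 5 genes. Hippocampal MIA control male 4 was the highest for Ly9 and Cd52 and the lowest for the other 3, and hippocampal saline PLX female 1 was the highest for Cd52 and Itgax and the lowest for the other 3. These libraries were picked out after their values were seen.

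The labels number the libraries of a group alike in both tissues, and 38 of 48 labels correlated best with their own number in the other tissue over all genes tested, with a median r of 0.24 against -0.04 for other numbers of the group. Each gene could therefore be followed from hippocampus to prefrontal cortex of a label. Lyz2 with PLX was the only one of 10 tests to pass, with r of 0.62 and rho of 0.60 over 24 labels (permutation p = 0.00192, adjusted p = 0.0192 by r and 0.0426 by rho), and r of 0.50 without the 2 farthest. The call ended without the libraries that stood apart (r = 0.59, adjusted p = 0.0879) and after removal of the level of Csf1r (r = 0.55, adjusted p = 0.0905). It also ended without MIA PLX female 5 (r = 0.59, adjusted p = 0.06), MIA PLX male 2 (0.58, adjusted p = 0.052), MIA PLX male 3 (0.52, adjusted p = 0.124) or saline PLX female 4 (0.58, adjusted p = 0.0539), all by permutation. Without inhibitor Lyz2 stood at 0.37 (permutation p = 0.0772, adjusted p = 0.258) and Cd52 at 0.46 (permutation p = 0.0551, adjusted p = 0.258). Ly9 and Itgax gave r between -0.16 and 0.15 in both inhibitor states, and Clec7a 0.15 with PLX and 0.19 without.

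**Figure D4:**
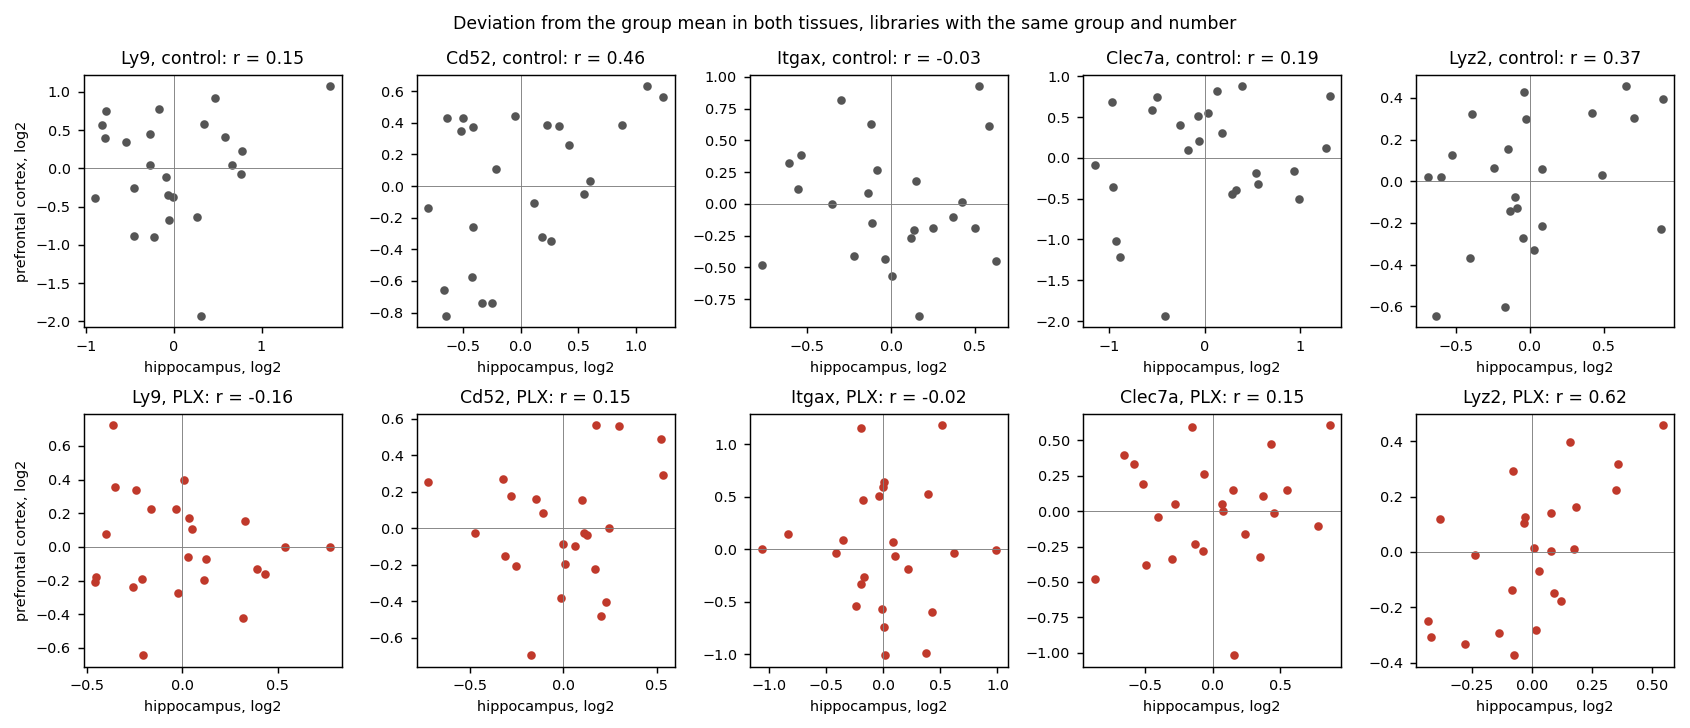
Deviation of each gene from its group mean, log2(scaled reads + 1), in hippocampus (x axis) against prefrontal cortex (y axis) for the 24 control labels (grey) and the 24 PLX labels (red). Lyz2 with PLX runs along the diagonal with r of 0.62, while Itgax shows no slope, with r of -0.03 and -0.02.

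Prenatal treatment and sex were not used to pick the genes, and both were tested with limma over all genes of a tissue. The MIA by PLX and sex by PLX interactions are differences of PLX effects, which the choice of genes did use. Their tests are therefore not independent of that choice. None of the 5 genes passed an adjusted p of 0.05 in any of 7 comparisons per tissue, 70 tests in all, by limma, edgeR or DESeq2, and 9 had an unadjusted p under 0.05. Over all genes tested, 0.00502% passed in hippocampus for MIA against saline in females without inhibitor, 0.246% for females against males, and 0% in each of the other 5 comparisons. In prefrontal cortex 0.141% passed for females against males and 0% in each of the other 6. In comparisons with 0% the count of genes with an unadjusted p under 0.05 ran from 407 to 1062, edgeR gave 0 genes in each of them, and DESeq2 gave 0 in all but MIA against saline in prefrontal females without inhibitor, where it gave 2. With array weights, limma passed 3215 genes for prefrontal sex, 2282 for the prefrontal sex by PLX interaction and 447 for hippocampal sex, and none of the 5 genes was among them.

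Itgax came closest, with a level higher in females than in males by 0.49 ± 0.13 on the log2 scale in hippocampus (SE, n = 25 and 23, unadjusted p = 0.00077 and adjusted p = 0.145 by limma). Female means of Itgax lay above male means in all 4 hippocampal strata, from 7.99 against 7.55 scaled reads in saline controls to 14.9 against 8.46 with MIA and PLX. Without hippocampal saline PLX female 2 the adjusted p was 0.0454. In prefrontal cortex the difference of Itgax was 0.33 ± 0.16 (limma, adjusted p = 0.812). Lyz2 and Ly9 were also higher in females in hippocampus, by 0.28 ± 0.11 (adjusted p = 0.457) and 0.33 ± 0.16 (adjusted p = 0.607 by limma), and neither passed.

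Without inhibitor, MIA males held less Itgax than saline males in hippocampus, with 1.86, 2.75, 3.13, 4.86 and 5.18 scaled reads in the 5 MIA libraries. The difference was -0.90 ± 0.28 on the log2 scale, with an unadjusted p of 0.00245 and an adjusted p of 1.00 by limma (n = 5 and 6). MIA females held less Clec7a than saline females, by -0.96 ± 0.35 (limma, unadjusted p = 0.00875, adjusted p = 0.725, n = 7 and 6). In both comparisons the ranges overlapped. The saline females of the Clec7a comparison included library 6 at 30.5 scaled reads, which stood apart. Their mean was 13.8 against 6.68 in MIA females. Without the libraries that stood apart the means were 9.78 (n = 3) and 7.28 (n = 5). The MIA by PLX interaction of hippocampal Itgax was 0.62 ± 0.27 (limma, unadjusted p = 0.0257, adjusted p = 1). The difference between sexes of the prefrontal PLX effect on Lyz2 was -0.49 ± 0.17, smaller in females (limma, unadjusted p = 0.00561, adjusted p = 0.823). Both interactions are differences of PLX effects, so their p-values are not independent of the choice of genes. With PLX given to both groups, the intervals of the MIA differences held 0 for all 5 genes in both sexes and tissues, from -1.07 to 1.17 at the widest, so changes of that size are not excluded.

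**Figure D5:**
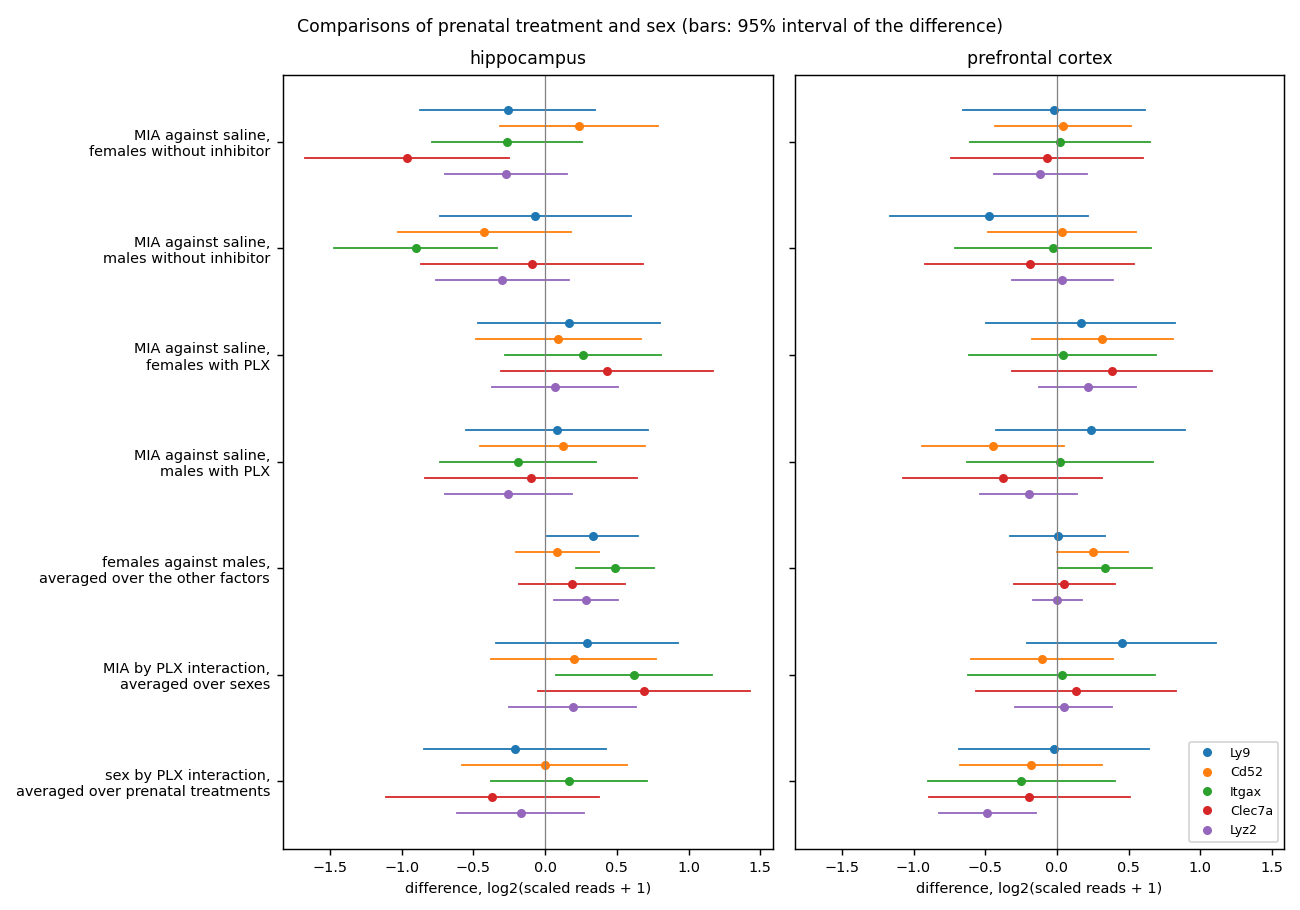
Differences of log2(scaled reads + 1) for the 5 genes in 7 comparisons of prenatal treatment and sex per tissue, with their 95% intervals from the limma fit before adjustment. Most intervals cross 0, and Itgax for females against males in hippocampus, from 0.21 to 0.76, is among the few that do not; none passed after adjustment over all genes.

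Genes of known kin and of the cell types that could hold the 5 genes were read in the PLX comparison averaged over sex and prenatal treatment. That comparison is confounded in part with the libraries that stood apart, and 40% of all genes passed in hippocampus and 37.8% in prefrontal cortex, against 0.376% and 0.217% with a term for those libraries and 0.0451% and 0.161% without them. Counts are therefore given with the term, beside the count without it. Levels in scaled reads are plain means of all control and all PLX libraries, which the term does not change. Resting microglia genes fell: 5 of 20 in hippocampus (16 without the term) and 9 of 20 in prefrontal cortex (15), and 0 rose. With the libraries that stood apart left out, 2 fell in hippocampus, Fcrls and Upk1b, so the hippocampal calls of P2ry12 and Cx3cr1 ended, and 8 fell in prefrontal cortex. Their median log2 difference with the term was -0.13 and -0.19, against -0.00 over all genes in both tissues. Fcrls, a microglial Fc receptor-like gene, fell from 573 to 409 and from 634 to 423 scaled reads, and P2ry12, the purinergic receptor of resting microglia, from 1000.4 to 828 and from 1014 to 807. Cx3cr1, the fractalkine receptor, fell by 0.21 ± 0.05 and 0.28 ± 0.05 with the term (adjusted p = 0.0395 and 0.00262 by limma). Csf1r, which encodes the target of PLX, went from 2525 to 2332 in hippocampus (adjusted p = 0.242 with the term) and fell from 2545 to 2211 in prefrontal cortex (adjusted p = 0.00278). Tmem119 did not pass with the term in either tissue (adjusted p = 0.785 and 0.674).

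Border macrophage genes were mixed. With the term 2 of 16 fell in hippocampus and 0 rose, and 4 of 19 fell and 1 rose in prefrontal cortex, against 4 down and 1 up, and 6 down and 6 up, without it. Cd163, a haemoglobin scavenger receptor of perivascular macrophages, fell from 72.5 to 28.2 and from 110.2 to 75.5 scaled reads. Siglec1, the sialoadhesin of macrophages, passed upward with the term in prefrontal cortex. Its means over all libraries were 13.8 scaled reads without inhibitor and 34.2 with PLX. It did not pass without the libraries that stood apart (adjusted p = 0.0701, limma). In that setting 1 border macrophage gene fell in hippocampus and 3 in prefrontal cortex. Among lysosomal genes, kin of Lyz2, Ctss, the cysteine protease cathepsin S, rose in both tissues with the term by 0.27 ± 0.06 and 0.24 ± 0.05 on the log2 scale, and Ctsc by 0.21 ± 0.05 in prefrontal cortex, 1 of 15 and 2 of 15 genes, with 0 falling. Ctss passed in prefrontal cortex alone once the libraries that stood apart were left out (adjusted p = 0.00699, against 0.0742 in hippocampus), and Ctsc did not pass (0.267, limma). Without the term the same list gave 0 up and 5 down in hippocampus and 4 up and 4 down in prefrontal cortex.

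The other 12 lists gave 0 genes past the threshold with the term in either tissue by limma. They held 119 entries tested in hippocampus and 122 in prefrontal cortex, with a gene shared by lists counted in each. Of these entries, 9 up and 3 down, and 12 up and 6 down, had an unadjusted p under 0.05 by limma. The lists covered disease-associated microglia, blood monocytes, T cells, B cells, natural killer cells, dendritic cells, neutrophils and red blood cells, and the kin of Ly9, Itgax, Clec7a and Cd52. Without the term, the kin of Ly9 gave 1 of 4 genes up in hippocampus and 2 of 5 in prefrontal cortex, with 0 down. The kin of Itgax gave 1 up and 1 down of 13, then 2 up and 2 down. The kin of Clec7a gave 3 up and 2 down of 12, then 1 up and 3 down of 14, and the kin of Cd52 gave 1 down of 13, then 1 up and 3 down. Disease-associated microglia genes gave 1 up and 6 down of 27 in hippocampus and 2 up and 6 down in prefrontal cortex. Blood monocytes gave 2 up and 1 down of 12, then 4 up and 2 down of 11, T cells 1 up and 3 down of 9, then 2 up and 2 down of 11, and dendritic cells 2 up and 1 down of 15, then 3 up and 4 down of 14. B cells gave 1 down of 5 and neutrophils 1 up of 3 in hippocampus, both gave 0 in prefrontal cortex, and natural killer and red blood cell genes gave 0 in both. In this fit without the term, Cd84 of the SLAM family and Vav3 of dectin signalling passed upward in both tissues. Itgb2, the partner of Itgax, and Cd48 passed upward in prefrontal cortex. Cd48 was in the lists of both Ly9 kin and Cd52 kin, so the 1 prefrontal riser among Cd52 kin is also counted among Ly9 kin. Only genes that rose are named here, so these names do not give the direction of their lists. In prefrontal cortex, for example, the kin of Clec7a gave 1 up and 3 down. None of the named genes passed with the term. Genes that fell are counted above and not named. Over all genes, the same fit called 4142 up and 3830 down of 19938 in hippocampus, and 3909 up and 3590 down of 19841 in prefrontal cortex. Itgam, the alpha chain of complement receptor 3, passed in neither tissue (adjusted p = 0.124 in both, limma without the term). Ccr2, the chemokine receptor that marks classical monocytes, stood at 6.69 without inhibitor and 6.93 with PLX in hippocampus and at 10.5 and 12.02 in prefrontal cortex, and did not pass with or without the term (adjusted p = 0.446 to 0.96). Of the 22 monocyte genes 14 were in the table, in which the lowest total of any gene was 128 scaled reads. In hippocampus their summed level ran from 5144 to 7992 scaled reads without inhibitor and from 4855 to 8502 with PLX. The prefrontal sum ran from 5592 to 10580 and from 5122 to 8289. Ccr2 made up little of these sums, so they are not read as a level of monocytes. Of the 20 T cell genes 11 were in the table, and their hippocampal sum ran from 144 to 195 without inhibitor and from 117 to 172 with PLX. Their prefrontal sum ran from 346 to 622 without inhibitor and from 312 to 634 with PLX. Border macrophage sums ran from 1149 to 2264 and from 1301 to 2008 in hippocampus, and from 1365 to 2023 and from 1498 to 1989 in prefrontal cortex. Ly6c2 and Cd3e were not analysed here. The part of blood cells, border macrophages or microglia in the higher levels of the 5 genes was not tested.

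The genes most like the 5 together were found with a score, the mean of their standardised deviations from group means over the 24 PLX libraries of a tissue, and are a description of these libraries. Of 19361 genes compared, 0.692% had an r above 0.3 in both tissues, and the median of the smaller r was -0.15. Tafa4, a secreted chemokine-like protein, led with r of 0.60 in hippocampus and 0.61 in prefrontal cortex. Ctss followed with 0.56 and 0.58, then BC028528 with 0.57 and 0.54 and Itgb2 with 0.49 and 0.49. The others were Trim30d (0.56 and 0.47), Vwf (0.46 and 0.49), Ccdc142os (0.52 and 0.46), Ifit3b (0.50 and 0.45), B2m (0.45 and 0.50) and Gpsm3 (0.45 and 0.44), after 2 predicted genes were passed over.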

How the data were processed

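mRNA libraries were made from 200 ng of total RNA with a stranded ligation kit, per the labels' protocols. Trimmomatic, STAR 2.6.1d and the build GRCm39 (mm39) are named in the submitters' processing notes. Which counter was used is not stated there. The deposited values have the unit signal: read counts that the authors divided by one factor per library. Dividing factors were recovered in 75 columns and lay close to 1 in 21, and 100% of values then came out whole at a tolerance of 0.01. Scaling was treated within each tissue, and levels were not tested across tissues.

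Genes at 10 or more in at least 5 libraries were tested per tissue (19938 and 19841) on log2(signal + 1) with limma 3.58.1 in R 4.3.3, fitted over 8 groups with Benjamini-Hochberg adjustment at 0.05. edgeR 4.0.16 and DESeq2 1.42.0 were run on recovered reads. For the averaged PLX comparison edgeR called 7891 genes in hippocampus and 7425 in prefrontal cortex. Correlations used 100000 permutations within groups (python 3.11.15, scipy 1.17.1), and the procedures were tested on simulated data. Alternatives were the pseudocount, the filter, quantile normalisation, array weights, a term for or removal of the libraries that stood apart, a replicate block, and leaving out each library.

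The 5 genes and the 15 gene lists (193 of 251 entries in the table, with a gene shared by lists counted in each) were chosen with earlier results of these data known. In the lists, genes were named by the smallest p among those called in the averaged PLX comparison, besides a fixed set of markers. The labels do not say that libraries came from separate animals or litters, so p-values measure the spread between these libraries, and prenatal treatment and litter cannot be told apart. Equal numbers in different groups of a tissue did not deviate together (median r of -0.00 and -0.01), so numbers did not pair the groups.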

Additional observations from a re-analysis of the deposited data

Results flagged for a closer look

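In 4 of 80 combinations of gene and group, one library lay far from the others of its group, and chance alone marks about 1 in 20. Ly9 in hippocampus of MIA control female 5 was 22.9 scaled reads, against 2.93 to 9.36 in the other 6 libraries. Lyz2 in the same library was 247.8, against 114.4 to 161.1. Ly9 in prefrontal cortex of saline PLX male 4 was 31.4, against 13.7 to 19.7. Itgax in hippocampus of MIA PLX female 5 was 12.8, the lowest of a group that otherwise ran from 14.8 to 15.98.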

How the results depend on the processing

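None of the 5 genes passed in the 14 comparisons of prenatal treatment, sex and interactions under the other pseudocounts, no filter, quantile normalisation, array weights, edgeR, DESeq2 or the replicate block, which gave 0 genes. Leaving out 1 library gave 0 to 1 genes for hippocampal females against males, where Itgax passed without saline PLX female 2 (adjusted p = 0.0454, limma), and 0 in the others. The correlated pairs past the threshold went from 0 to 1 in hippocampal controls with a pseudocount of 5, and to 0 to 1 when 1 library was left out. There Itgax with Clec7a passed without MIA control female 1 or 3, MIA control male 3 or 6, or saline control male 5 (r of 0.68 to 0.74). In hippocampal PLX libraries the range was also 0 to 1, with 1 only without saline PLX female 1 (r = 0.65, adjusted permutation p = 0.018). Removing Csf1r gave 1 pair in prefrontal PLX libraries, Ly9 with Cd52, and took the mean r of hippocampal controls from 0.39 to 0.12. The 1 between-tissue call, Lyz2, fell to 0 without the libraries that stood apart and with Csf1r removed, and ran from 0 to 1 when a label was left out. Genes called for PLX went from 7972 to 75 with the term and 9 without those libraries in hippocampus, and from 7499 to 43 and 32 in prefrontal cortex. Over all genes, array weights passed 3215 against 28 for prefrontal sex, 2282 against 0 for prefrontal sex by PLX, 447 against 49 for hippocampal sex and 1 against 0 for MIA in hippocampal control males. MIA in hippocampal control females gave 1 gene, against 15 with DESeq2, 11 with array weights, 10 with the term, and 0 with the replicate block or without the libraries that stood apart. Hippocampal sex gave 81 with DESeq2, 87 with the term and 21 without those libraries, prefrontal sex 47 with the term, and MIA in prefrontal control females 2 with DESeq2. Without the libraries that stood apart, a choice made after seeing the data that leaves fewer libraries to overlap, full separation was seen in 8 hippocampal pairs against 5, while the share of all genes separating rose to between 0.667% and 4.89%. Low counts of Ly9, Itgax and Clec7a limit what these libraries can show. Causes of these changes were not tested.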
